A study of Homo sapiens with 20 samples.

Results

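The genes described here encode the translation initiation factors, the proteins that bring an mRNA and the small ribosomal subunit together and place the ribosome on the start codon. They were taken from the table of gene counts as all rows whose symbol begins with EIF followed by a digit from 1 to 6, leaving out antisense genes and genes with fewer than 10 counts summed over the 20 samples. Of 60 matching names, 2 antisense genes and 3 genes under the count minimum were left out, which gave 55 genes of the 36601 in the table. A filter on low counts kept 54 of the 55 and 12149 genes in all. The gene that did not pass, EIF2AK3-DT, is a divergent noncoding transcript, and EIF3J-DT, which passed, is another. EIF3C and its near-identical copy EIF3CL were also summed.

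All samples were MDA-MB-231 cells, an established human breast cancer line of mesenchymal type, and each sample pooled the RNA of 2 wells seeded with 30000 cells and grown for 24 h at 37 °C. The 5 groups had 4 samples each: untreated cells, cells given 200 µl of a 0.1 mg/ml nanoparticle suspension for 4 h (nanoparticles alone), and cells given the same nanoparticles and then 10 min of 808 nm laser light with the temperature held at 46, 50 or 54 °C. Laser light without nanoparticles was not analysed here. In the laser groups the heat, the light and their joint action with the particles therefore cannot be told apart, while particles without light served as a reference. The sources used here do not give the time between laser and lysis. Libraries read the 3′ ends of poly(A) RNA, so a transcript gives about the same number of reads whatever its length. In bulk RNA, fewer cells that express a gene and less of its RNA per cell cannot be told apart.

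Library totals ran from 2401180 to 7710977 counts, with means of 3386464 in untreated cells, 3800525 for nanoparticles alone, 2872173 in the 46 °C group, 4130926 in the 50 °C group and 6769582 in the 54 °C group. The line's markers VIM (1340 to 2074 CPM, counts scaled to a library of 1000000) and CD44 (551 to 797 CPM) were high in every sample, while SPARC, also listed as a marker, reached only 15.5 CPM. Of the markers listed as absent or low in the line, oestrogen receptor ESR1, progesterone receptor PGR and E-cadherin CDH1 stayed under 4 CPM. The others on that list reached more, GATA3 with 3.66 to 27.4 CPM, ERBB2 with 3.68 to 16.9 and EPCAM with 0 to 20.2. Among the markers of other cell types reported here, CD68 of macrophages was highest, at 3.37 to 17.7 CPM, CD3E of T cells stayed under 1 CPM and HBB of red blood cells had 0 counts. Transcripts read here as possible signs of RNA quality moved with the groups, and no direct measure of RNA quality was used. The summed level of 3 nuclear noncoding RNAs was 2992 to 4287 CPM at 46 °C, 3290 to 4509 at 50 °C and 3719 to 4878 at 54 °C. It was 1223 to 1866 CPM with nanoparticles alone and 1261 to 2952 in untreated cells. The 3 did not move alike. At 46, 50 and 54 °C over nanoparticles alone the log2 fold changes were 1.20, 1.44 and 2.04 for NEAT1 and 2.10, 0.08 and 0.45 for KCNQ1OT1. The 13 mitochondrially encoded mRNAs summed to 42440 to 53920 CPM at 46 °C, 151700 to 211000 at 50 °C and 124400 to 154100 at 54 °C. They summed to 107200 to 125000 CPM with nanoparticles alone and 82640 to 128000 in untreated cells. The 28 measured replication-dependent histone genes, whose mRNAs normally lack a poly(A) tail, summed to 1236 to 1661 CPM at 50 °C and 732 to 858 at 54 °C. At 46 °C they summed to 781 to 1270 CPM, with nanoparticles alone to 487 to 895 and in untreated cells to 533 to 1228. The part of these shifts in the results below was not tested. Replicates 1 and 2 stood apart from replicates 3 and 4 by the chi-square per gene between samples. In all 5 groups it was lower for these pairs (7.55 to 15.7) than for any other pair of the same group, for example 8.32 and 8.45 at 50 °C against 11.5 to 14.4. The correlation of log2 CPM did not show this split in every group. At 54 °C it was 0.942 for replicates 1 and 2 and 0.906 for 3 and 4, against 0.922 for 1 and 3 and 0.929 for 2 and 3. No label gives a batch, and values within each set are printed for some of the calls that changed there.

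Initiation starts when EIF4E binds the cap of an mRNA. EIF4E, the scaffold EIF4G1 and an RNA helicase, EIF4A1 or EIF4A2, form the complex that unwinds the leader and loads the small subunit. That subunit carries EIF1, EIF1A, EIF3, EIF5 and the ternary complex of EIF2, GTP and initiator tRNA. Stress can slow initiation through the EIF2 kinases, which phosphorylate the EIF2 alpha subunit and block its exchange factor EIF2B, and through the EIF4E-binding proteins, which compete with EIF4G1 for EIF4E. Heat shock is a known inhibitor of initiation in mammalian cells.

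The results turn on 2 pairs of related genes, and how alike their mRNAs are decides how well 3′ reads can separate them. The last 90 coding bases before the stop codon are shown, with bases that differ within a pair in capitals. They come from GENCODE v29 transcripts on GRCh38. In EIF4A2 they lie at chr3:186789177-186789266 (plus strand) and in EIF4A1 at chr17:7578394-7578483 (plus strand), each within 1 coding exon, and 16 of the bases differ.
EIF4A2: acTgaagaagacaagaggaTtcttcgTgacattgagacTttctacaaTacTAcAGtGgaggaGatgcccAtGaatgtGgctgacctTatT
EIF4A1: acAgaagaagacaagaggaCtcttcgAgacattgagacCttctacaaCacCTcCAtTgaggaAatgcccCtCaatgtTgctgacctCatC
The same stretch of EIF3C (chromosome 16, plus strand, gene at 28688558 to 28735730) and EIF3CL (chromosome 16, minus strand, gene at 28379579 to 28403879) spans several exons and holds 0 differences.
EIF3C: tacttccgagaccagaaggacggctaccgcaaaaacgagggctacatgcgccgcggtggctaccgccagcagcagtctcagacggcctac
EIF3CL: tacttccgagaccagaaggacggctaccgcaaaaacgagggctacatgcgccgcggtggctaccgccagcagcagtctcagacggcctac
Over whole coding sequences the closest transcripts of EIF4A2 and EIF4A1 were 77.2% identical and those of EIF3C and EIF3CL 99.9%. The last 300 transcript bases were 73.8% identical at best in the helicase pair and 100% identical in the EIF3C pair. EIF5A and EIF5AL1 were 98.9% identical over their coding sequences. Reads of EIF4A1 and EIF4A2 differ enough in letters to be assigned by sequence, whereas counts of EIF3C, EIF3CL, EIF5A and EIF5AL1 depend on how the counting divided shared reads, and each is uncertain on its own.

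The level of EIF4A2 separated 1 laser temperature from all other conditions, and the sequence around its start site and that of EIF4A1 is shown for that reason. The windows run from 100 bases before the start to 10 bases from it, as RefSeq places it on GRCh38.p14, at chr3:186783477-186783586 (plus strand) for EIF4A2 and chr17:7572725-7572834 (plus strand) for EIF4A1. Capitals mark TATAA, the start base and, in EIF4A2, the palindrome GAANNTTC.
EIF4A2: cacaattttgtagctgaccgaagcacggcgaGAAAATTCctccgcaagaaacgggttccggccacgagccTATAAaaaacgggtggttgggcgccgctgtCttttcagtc
EIF4A1: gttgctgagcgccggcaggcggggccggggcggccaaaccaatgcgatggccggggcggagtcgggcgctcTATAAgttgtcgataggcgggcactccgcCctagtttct
TATAA began 30 bases before the start of EIF4A2 and 29 before that of EIF4A1. Of 27305 genes with a promoter window, 4.7% hold TATAA beginning 35 to 20 bases before the start. Among the 46 initiation factor genes with a window these were EIF1, EIF4A1, EIF4A2 and EIF4B. GAANNTTC and TTCNNGAA are the paired units that make up heat shock elements, the binding sites of HSF1. GAANNTTC, which reads the same on both strands, occurs within the 300-base windows of 8.21% of genes, and among initiation factor genes in EIF4A2, 69 bases before its start, and in EIF5. TTCNNGAA, also its own reverse complement, occurs in 9.46% of genes and in EIF3F, EIF4G2 and EIF5B. Triplets that join both units by a shared half-site occur in 0.61% of genes and in 0 of the 46. A C at the start followed by at least 4 more C or T bases, the mark of mRNAs with a 5′ terminal oligopyrimidine tract, occurs in 5.14% of genes and in 9 of the 46, EIF4A2 among them. These matches describe letters in a window and not bound sites.

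The members as a whole took a similar share of the library totals in every group. These totals are unscaled and include the mitochondrially encoded mRNAs, whose level differed between groups. The share was 1.27% ± 0.10 for untreated cells, 1.33% ± 0.033 for nanoparticles alone, 1.33% ± 0.098 for the 46 °C group, 1.26% ± 0.055 for the 50 °C group and 1.29% ± 0.041 for the 54 °C group (SD, n = 4 each), and the ranges of the groups overlapped. A single test for any difference among the 5 groups, edgeR's quasi-likelihood F test with Benjamini-Hochberg adjustment over all 12149 genes and a threshold of 0.05, called 4 of the 54 genes, EIF4A2 (adjusted p = 1.5e-15), EIF4A1 (0.0106), EIF3C (0.0197) and EIF4G2 (0.0316). Among all genes tested the same test called 2.4%. Every adjusted p below is from the same fit and adjustment, on contrasts of 2 groups, and a gene is called higher or lower when it is under 0.05.

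**Figure D1:**
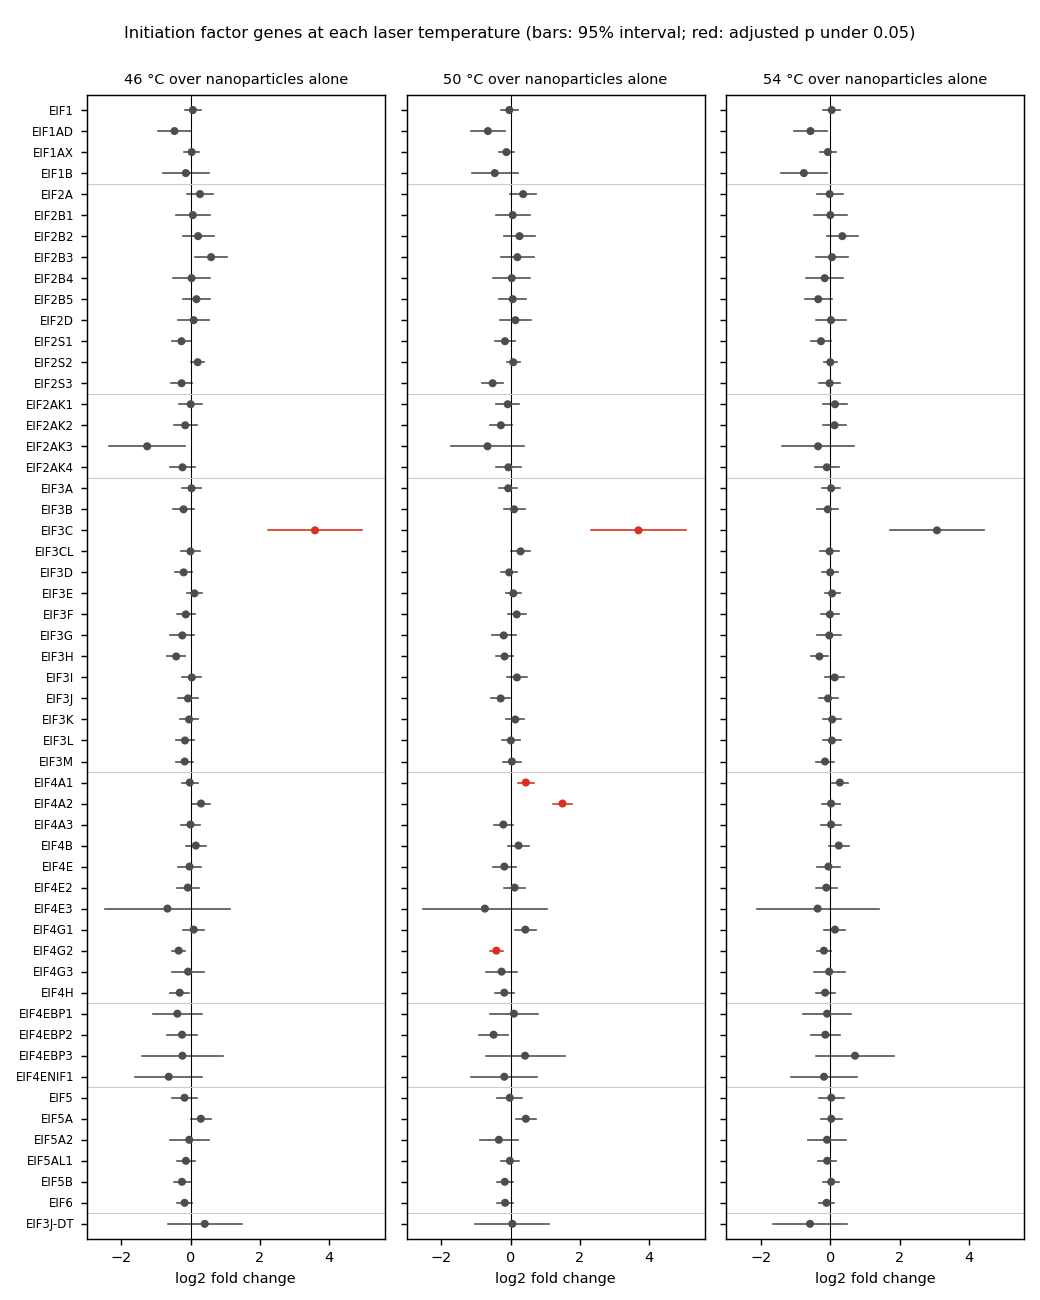
Log2 fold change of the 54 initiation factor genes in cells lit at 46, 50 and 54 °C over cells with nanoparticles alone (x axis), 1 row per gene, with gray lines between groups of related genes; points are estimates, bars 95% intervals, and red marks genes with an adjusted p under 0.05. Most intervals cross 0, and EIF4A2 stands at 1.5 at 50 °C against 0.30 at 46 °C and 0.02 at 54 °C.

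EIF4A2, one of the helicases of the cap complex, was higher in all 4 samples at 50 °C than in any sample of the other groups. It had 202, 200, 169 and 192 CPM in untreated cells (replicates 1 to 4, as in the lists that follow), 178, 210, 216 and 187 CPM with nanoparticles alone, 241, 283, 228 and 221 CPM at 46 °C, 450, 546, 685 and 556 CPM at 50 °C, and 204, 158, 218 and 222 CPM at 54 °C. The lowest sample at 50 °C, at 450 CPM, was above the highest of all others, at 283 CPM. The means were 559 CPM at 50 °C and 198 CPM with nanoparticles alone, which is a 2.83-fold difference. On the log2 scale it was 1.5 ± 0.13 (SE), with a 95% interval of 1.23 to 1.77 and an adjusted p of 5.12e-12, rank 4 by p among the 12149 genes.

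EIF4A2 was called in each comparison that involved 50 °C and in none of the others. At 50 °C it was also above 46 °C, by 1.20 ± 0.13 (adjusted p = 2.46e-09), and at 54 °C it was below 50 °C, with a log2 fold change of −1.48 ± 0.13 (adjusted p = 1.39e-11), the second smallest p of that comparison. At 54 °C it differed from nanoparticles alone by 0.02 ± 0.13 (interval −0.24 to 0.29, adjusted p = 0.999). At 46 °C all 4 samples were above all 4 with nanoparticles alone, but the log2 fold change of 0.30 ± 0.13 was not called (adjusted p = 0.362). Within replicates 1 and 2 the value at 50 °C over nanoparticles alone was 1.36 (adjusted p = 9.43e-09) and within replicates 3 and 4 it was 1.62 (adjusted p = 1.69e-10). Over the 16 alternatives tried it ran from 1.36 to 1.62, with adjusted p from 1.61e-25 to 9.43e-09.

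EIF4A1, the more studied helicase paralog, rose less. It had 681, 672, 724 and 665 CPM in untreated cells, 662, 654, 722 and 804 CPM with nanoparticles alone, 645, 539, 746 and 862 CPM at 46 °C, 827, 916, 1129 and 988 CPM at 50 °C, and 713, 825, 922 and 975 CPM at 54 °C. The samples at 50 °C were all above those with nanoparticles alone, while they overlapped those at 46 °C. The log2 fold change was 0.44 ± 0.12 at 50 °C over nanoparticles alone (adjusted p = 0.0418) and 0.47 ± 0.12 at 50 °C over 46 °C (adjusted p = 0.026). At 54 °C it was 0.27 ± 0.12 over nanoparticles alone (adjusted p = 0.79), and at 46 °C −0.03 ± 0.12 (adjusted p = 0.969). The call at 50 °C over nanoparticles alone was borderline: it held under 8 of 16 alternatives, with log2 fold changes of 0.32 to 0.51 and adjusted p from 0.00127 to 0.212. That over 46 °C held under 9 of 16, with log2 fold changes of 0.29 to 0.59 and adjusted p from 0.000299 to 0.191. With library totals as the scale the value over nanoparticles alone was 0.32 (adjusted p = 0.143), where the median of all genes was −0.10. Within replicates 1 and 2 it was 0.41 (adjusted p = 0.036) and within replicates 3 and 4 it was 0.47 (adjusted p = 0.054).

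**Figure D2:**
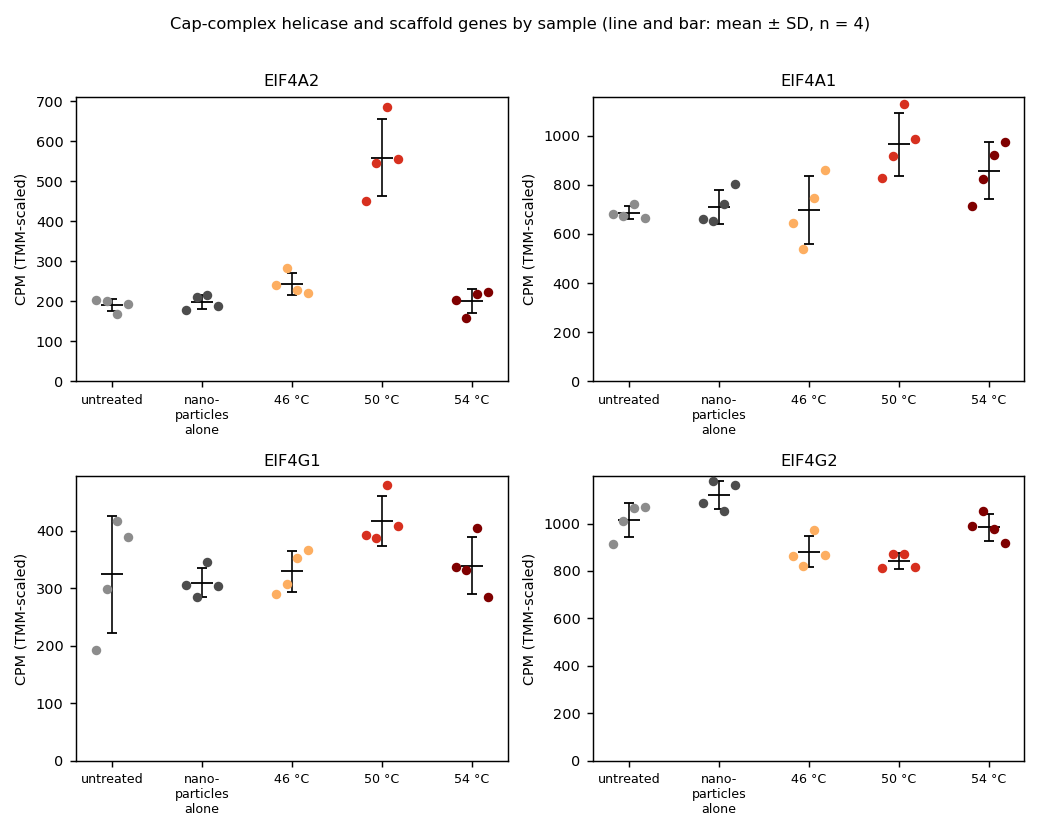
TMM-scaled CPM (y axis) of EIF4A2, EIF4A1, EIF4G1 and EIF4G2 in each sample of the 5 groups (x axis); points are samples, and the black line and bar are the mean ± SD of 4. All 4 samples at 50 °C lie above all others for EIF4A2, between 450 and 685 CPM, and lie below those with nanoparticles alone for EIF4G2.

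The balance between the helicase genes moved with it. Of the summed EIF4A1 and EIF4A2 counts, EIF4A2 gave 21.8% ± 1.92 for untreated cells, 21.8% ± 2.38 for nanoparticles alone, 26.3% ± 6.08 for the 46 °C group, 36.6% ± 1.17 for the 50 °C group and 19% ± 2.56 for the 54 °C group (SD, n = 4 each). At 50 °C the samples ran from 35.2% to 37.7% and at 46 °C from 20.4% to 34.5%, so the groups did not overlap. An exact two-sided permutation test over samples gave p = 0.0286 for 50 °C against nanoparticles alone, for 50 °C against 46 °C and for 54 °C against 50 °C, the smallest p that 4 samples against 4 allow, and 0.0858 after Benjamini-Hochberg adjustment over 18 such tests. At 46 °C the share was 4.5 percentage points above nanoparticles alone (exact permutation p = 0.229, adjusted 0.344), and 1.8 points above without 46 °C replicate 2.

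**Figure D3:**
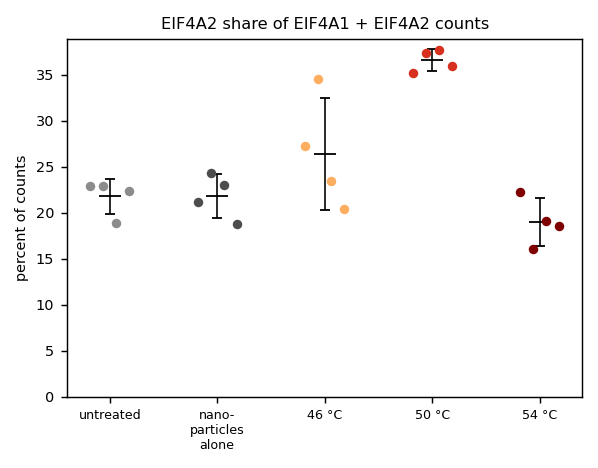
Percent of the summed EIF4A1 and EIF4A2 counts that came from EIF4A2 (y axis) in each sample of the 5 groups (x axis), with the mean ± SD of 4. The samples at 50 °C lie between 35.2% and 37.7% and those with nanoparticles alone between 18.8% and 24.3%.

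The introns of EIF4A1 and EIF4A2 hold more small nucleolar RNA genes than those of any other member. SnoRNAs are short noncoding RNAs, cut from introns, that guide modification of ribosomal RNA. In GENCODE v29, 7 of the 55 genes hold 15 snoRNA genes on their own strand, 5 in EIF4A2, 3 in EIF4A1, 2 each in EIF3A and EIF1AX, and 1 each in EIF4G1, EIF4G2 and EIF5. The snoRNAs of both helicase genes lie in introns of the coding transcripts and overlap exons of other transcripts. For each host 1 snoRNA of each class is shown, because these sequences lie inside the genes that rose. Capitals mark TGATG and CTGA, parts of the boxes of the C/D class, or the ACA near the 3′ end of the H/ACA class. SNORD2 lies at chr3:186784796-186784864, SNORA63 at chr3:186787300-186787431, SNORD10 at chr17:7576811-7576952 and SNORA48 at chr17:7574713-7574847, all on the plus strand of GRCh38.
SNORD2: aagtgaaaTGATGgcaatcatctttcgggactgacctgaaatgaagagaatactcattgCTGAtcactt
SNORA63: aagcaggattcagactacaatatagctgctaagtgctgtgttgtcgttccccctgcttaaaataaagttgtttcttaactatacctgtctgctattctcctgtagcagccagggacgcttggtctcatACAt
SNORD10: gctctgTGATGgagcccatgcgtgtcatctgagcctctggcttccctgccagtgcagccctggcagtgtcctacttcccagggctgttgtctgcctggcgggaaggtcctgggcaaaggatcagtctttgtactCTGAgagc
SNORA48: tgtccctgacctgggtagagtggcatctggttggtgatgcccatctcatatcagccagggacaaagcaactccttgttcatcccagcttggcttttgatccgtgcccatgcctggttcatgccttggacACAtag
Of 943 annotated snoRNAs, 28.7% hold TGATG in the first 25 bases with CTGA in the last 20, and 38.6% hold ACA in the last 8. The libraries read poly(A) RNA and snoRNAs lack a poly(A) tail, though histone mRNAs that normally lack one were also counted. Whether reads of snoRNAs or introns entered the counts of their hosts was not tested. Among all tested genes, the 32 that hold at least 3 snoRNA genes, EIF4A1 and EIF4A2 included, had a median log2 fold change of 0.18 at 50 °C over nanoparticles alone, with 5 called higher, both helicases among them, and 0 lower. The limit of 3 was set with the helicase genes' own numbers known, and the medians were not computed without these genes. A link between snoRNA genes and the change was not tested. The 213 genes that hold 1 or 2 had a median of 0.06, with 6 called higher and 2 lower. The 11868 genes that hold none had a median of 0.02, with 51 called higher and 82 lower. For 54 °C over 50 °C the medians were −0.11 with at least 3, −0.03 with 1 or 2 and −0.004 with none. At 46 and 54 °C over nanoparticles alone edgeR called 0 of the 32, with medians of 0.08 and 0.03.

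**Figure D4:**
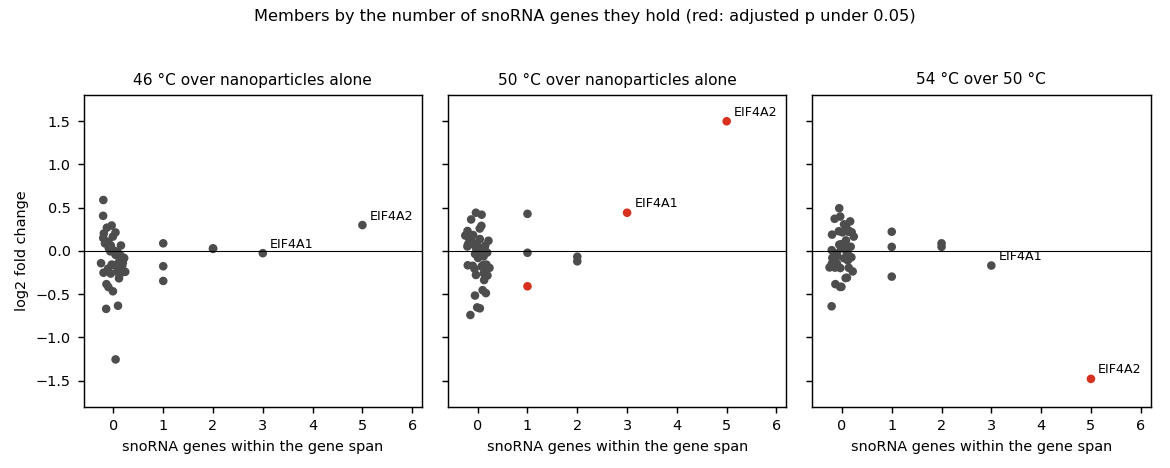
Log2 fold change (y axis) of the initiation factor genes at 46 °C and at 50 °C over nanoparticles alone and at 54 °C over 50 °C against the number of snoRNA genes within the gene span (x axis; points at 0 are spread sideways for sight); EIF3C is left out and red marks an adjusted p under 0.05. EIF4A2, with 5 snoRNA genes, stands apart at 1.5 and −1.48, and the genes with 1 or 2 lie among those with none.

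Beyond the helicases, EIF4G2 was the other gene of the EIF4 group that edgeR called. Of the group's 11 tested genes at 50 °C over nanoparticles alone, 2 were called higher (EIF4A1 and EIF4A2), where 0.527% of all genes were. EIF4G2 was called lower, where 0.691% of all genes were, and 8 did not pass. EIF4G2 (chromosome 11, 10797050 to 10809110, minus strand) encodes a relative of EIF4G1 that lacks the part binding EIF4E and serves initiation that does not use it. It had 914, 1011, 1063 and 1070 CPM in untreated cells, 1085, 1177, 1054 and 1164 CPM with nanoparticles alone, 863, 821, 974 and 867 CPM at 46 °C, 813, 873, 873 and 816 CPM at 50 °C, and 990, 1055, 976 and 916 CPM at 54 °C. All samples at 46 and 50 °C were below all samples with nanoparticles alone. The log2 fold change was −0.41 ± 0.10 at 50 °C (adjusted p = 0.0153) and −0.35 ± 0.10 at 46 °C (adjusted p = 0.0606). The fall at 50 °C kept its sign under all 16 alternatives, with adjusted p from 4.43e-05 to 0.131, and it lost its call within replicates 3 and 4 (−0.40, adjusted p = 0.131) and without 50 °C replicate 1, nanoparticles-alone replicate 2 or nanoparticles-alone replicate 4 (adjusted p = 0.0628, 0.0746 and 0.0566). The difference at 46 °C was called under 4 of 16 alternatives, among them DESeq2 (adjusted p = 0.00168), replicates 1 and 2 alone (adjusted p = 0.0094) and the fit without 46 °C replicate 3 (adjusted p = 0.0433). Over the alternatives its adjusted p ran from 0.00168 to 0.548.

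EIF4G1, the main scaffold, was chosen for display after its values were seen. It averaged 417 CPM at 50 °C and 310 CPM with nanoparticles alone, without overlap between the samples, and its log2 fold change of 0.43 ± 0.15 was not called (adjusted p = 0.182). With those 2 groups fitted alone it was called higher. EIF4E, the cap-binding protein, averaged 94.1 CPM at 50 °C and 107 CPM with nanoparticles alone, with a log2 fold change of −0.18 ± 0.17 (adjusted p = 0.763). EIF4B and EIF4H, which stimulate the helicase, had 0.23 ± 0.15 and −0.18 ± 0.14 (adjusted p = 0.618 and 0.706). EIF4A3, a related helicase that sits in the exon junction complex rather than at the cap, had −0.21 ± 0.14 (adjusted p = 0.653).

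Among the EIF3 subunit genes, 1 of 14 was called in any comparison, EIF3C, and the call was not made for the sum of EIF3C and its copy. EIF3C had 13.4, 5.29, 25.1 and 31.0 CPM in untreated cells, 7.94, 1.09, 0 and 6.88 CPM with nanoparticles alone (31.31, 5, 0 and 27.82 estimated counts), 36.2, 47.4, 66.2 and 49.2 CPM at 46 °C, 43.4, 61.8, 56.9 and 51.4 CPM at 50 °C, and 20.2, 26.9, 42.35 and 49.9 CPM at 54 °C. Each laser group lay above the group with nanoparticles alone. The log2 fold changes were 3.59 ± 0.64 at 46 °C (adjusted p = 0.00743), 3.69 ± 0.64 at 50 °C (adjusted p = 0.00709) and 3.08 ± 0.63 at 54 °C (adjusted p = 0.0994). The first 2 were called under all 16 alternatives, with adjusted p up to 0.0267, and the last under 3 of 16, with adjusted p from 0.00105 to 0.28.

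EIF3CL, the copy, took most reads of the pair and was called in no comparison. It had 226, 272, 313 and 339 CPM in untreated cells, 299, 310, 320 and 296 CPM with nanoparticles alone, 280, 259, 377 and 304 CPM at 46 °C, 358, 327, 433 and 380 CPM at 50 °C, and 383, 288, 272 and 262 CPM at 54 °C. Its log2 fold changes over nanoparticles alone were −0.01 ± 0.14 at 46 °C, 0.29 ± 0.13 at 50 °C and −0.02 ± 0.13 at 54 °C, with adjusted p of 0.995, 0.382 and 0.999. Of the pair's counts, EIF3C gave 5.83% ± 2.88 for untreated cells, 1.30% ± 1.32 for nanoparticles alone, 13.9% ± 1.78 for the 46 °C group, 12.5% ± 2.27 for the 50 °C group and 10.7% ± 4.92 for the 54 °C group (SD, n = 4 each). The exact permutation p was 0.0286 for each laser group against nanoparticles alone, 0.0858 after adjustment over the 18 tests.

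The summed pair was called in none of the 6 comparisons. EIF3C and EIF3CL together had 240, 277, 338 and 370 CPM in untreated cells, 307, 311, 320 and 303 CPM with nanoparticles alone, 316, 306, 444 and 354 CPM at 46 °C, 401, 389, 490 and 431 CPM at 50 °C, and 403, 315, 315 and 312 CPM at 54 °C. The samples at 50 °C were all above those with nanoparticles alone. The log2 fold change of the sum was 0.19 ± 0.13 at 46 °C (adjusted p = 0.648), 0.46 ± 0.13 at 50 °C (adjusted p = 0.0575, and 0.00735 to 0.23 over 16 alternatives) and 0.12 ± 0.13 at 54 °C (adjusted p = 0.994). For 50 °C over 46 °C it was 0.27 ± 0.13 (adjusted p = 0.442), for 54 °C over 50 °C −0.35 ± 0.13 (adjusted p = 0.553), and for nanoparticles alone over untreated cells 0.02 ± 0.13 (adjusted p = 1). EIF5A and EIF5AL1, the other near-identical pair, summed to a log2 fold change of 0.24 ± 0.10 at 50 °C over nanoparticles alone (adjusted p = 0.344).

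**Figure D5:**
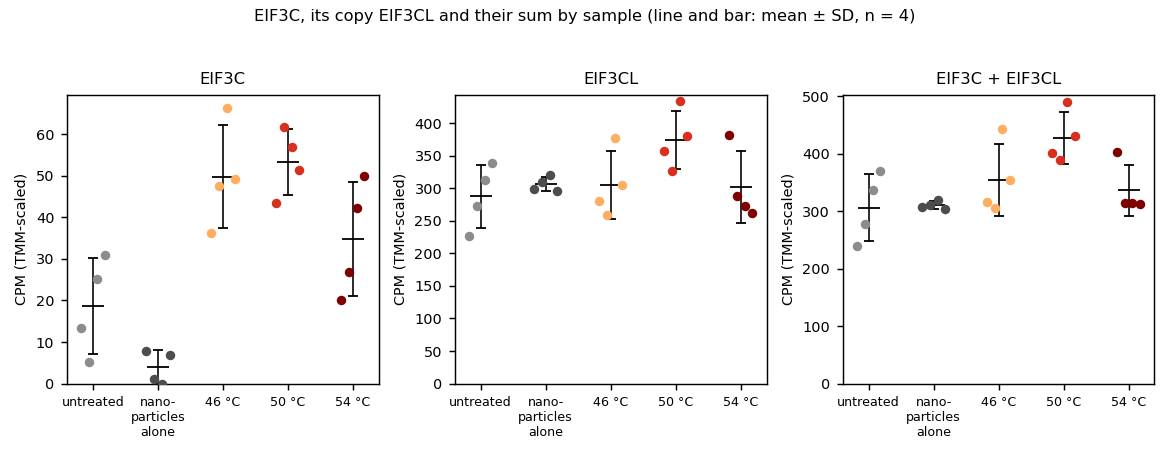
TMM-scaled CPM (y axis) of EIF3C, EIF3CL and their sum in each sample of the 5 groups (x axis), with the mean ± SD of 4; the y scale differs between panels. EIF3C lies at 0 to 7.94 CPM with nanoparticles alone and above 20 CPM in every laser sample, while the sum has 303 to 320 CPM with nanoparticles alone and 306 to 490 CPM in the laser samples.

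Read by temperature, few members were called. At 46 °C over nanoparticles alone, 1 of 54 was higher (EIF3C) and 0 were lower by edgeR, with 9 at an unadjusted p under 0.05 where 11% of all genes were, while DESeq2 called EIF3C higher and EIF3H and EIF4G2 lower. Among all genes 0.963% were called, 0.617% higher and 0.346% lower. Samples did not overlap for 8 of the 54 genes, against 6.96% of all genes. They were 4 higher, against 3.69%, and 4 lower, against 3.28%. The median log2 fold change of the members was −0.08, and that of all genes 0.01. With library totals as the scale, 95 genes in all were higher and 33 lower, against 75 and 42.

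At 50 °C over nanoparticles alone, 3 of 54 were higher (EIF3C, EIF4A1 and EIF4A2) and 1 was lower (EIF4G2), where 1.22% of all genes were called, 0.527% higher and 0.691% lower. At an unadjusted p under 0.05 there were 11 members and 11.4% of all genes. Samples did not overlap for 9 of the 54 genes, against 8.33% of all genes. They were 6 higher, against 4.2%, and 3 lower, against 4.13%. The member median was −0.02 and that of all genes 0.02. The 50 members that were not called ran from −0.74 to 0.44. Library totals as the scale moved the median of all genes by about −0.1 and gave 50 genes higher and 227 lower in all, against 64 and 84, and they left EIF3C and EIF4A2 higher and EIF4G2 and EIF2S3 lower among the members.

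At 54 °C over nanoparticles alone, edgeR called 0 of 54 higher and 0 lower, with 5 at an unadjusted p under 0.05 where 5.75% of all genes were, and DESeq2 called EIF3C higher. Among all genes 0.123% were called, 0.0741% higher and 0.0494% lower. Samples did not overlap for 3 of the 54 genes, against 4.28% of all genes. They were 1 higher, against 2.19%, and 2 lower, against 2.09%. The member median was −0.02 and that of all genes 0.01. After EIF3C, the smallest p belonged to EIF3H, which encodes an accessory subunit of EIF3. It had 250, 221, 240 and 237 CPM at 54 °C, against 284, 283, 283 and 330 CPM with nanoparticles alone. The samples did not overlap, and the log2 fold change was −0.32 ± 0.13 (adjusted p = 0.734). At 46 °C EIF3H had 201, 186, 247 and 250 CPM and a log2 fold change of −0.42 ± 0.13 (adjusted p = 0.122).

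Between temperatures the calls among members were the helicase genes. For 50 °C over 46 °C, 2 of 54 were higher (EIF4A1 and EIF4A2) and 0 lower, with 6 at an unadjusted p under 0.05 where 10.6% of all genes were, and DESeq2 called the same 2 higher and 0 lower. Among all genes 1.19% were called, 0.584% higher and 0.609% lower. Samples did not overlap for 2 members (EIF4A2 and EIF4G1) and for 7.1% of all genes. Both were higher, against 3.7%, and 0 were lower, against 3.41%. The member median was 0.07 and that of all genes −0.004. For 54 °C over 50 °C, 0 were higher and 1 was lower (EIF4A2), with 8 at an unadjusted p under 0.05 where 6.02% of all genes were, and DESeq2 called the same gene. Among all genes 0.198% were called, 0.0576% higher and 0.14% lower. Samples did not overlap for 5 members and for 5.13% of all genes. They were 3 higher, against 2.48%, and 2 lower, against 2.65%. Library totals as the scale gave 46 genes higher and 374 lower in all for 50 °C over 46 °C, against 71 and 74, and 22 higher and 16 lower for 54 °C over 50 °C, against 7 and 17.

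Nanoparticles without light changed no member past the threshold. Against untreated cells edgeR and DESeq2 called 0 of 54, with 3 at an unadjusted p under 0.05 where 3.94% of all genes were, and 0% of all genes were called. Samples did not overlap for 4 members and for 2.73% of all genes. They were 3 higher, against 1.3%, and 1 lower, against 1.43%. EIF3C had a log2 fold change of −2.16 ± 0.65 (adjusted p = 1), with overlapping samples. EIF2S1 encodes the alpha subunit of EIF2, the target of the stress kinases. It had 187, 180, 170 and 221 CPM with nanoparticles alone, against 163, 124, 167 and 164 CPM in untreated cells. Its samples did not overlap, and its log2 fold change was 0.30 ± 0.14 (adjusted p = 1).

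Among the remaining members edgeR called none in the 6 comparisons as fitted here, while EIF2S3, EIF3H, EIF4G1, EIF5, EIF5A and EIF5B were each called under at least 1 alternative. Of the 10 genes for EIF2, its exchange factor EIF2B and the initiator-tRNA carriers EIF2A and EIF2D, log2 fold changes at 50 °C over nanoparticles alone ran from −0.52 to 0.36. EIF2S3, the gamma subunit that holds GTP and initiator tRNA, was the lowest of them, with 140 CPM at 50 °C and 201 CPM with nanoparticles alone (−0.52 ± 0.15, adjusted p = 0.0773), without overlap. It was called with library totals as the scale and without the filter. The 4 EIF2 kinase genes had −0.08 ± 0.17 (EIF2AK1, the heme-regulated kinase), −0.28 ± 0.16 (EIF2AK2, activated by double-stranded RNA), −0.66 ± 0.53 (EIF2AK3, of the endoplasmic reticulum) and −0.06 ± 0.18 (EIF2AK4, which senses lack of amino acids). The 4 genes of the EIF4E-binding proteins and of the EIF4E transporter EIF4ENIF1 ran from −0.49 to 0.42. EIF4EBP1, the best known of these inhibitors, had 24.5 to 45.4 CPM in replicates 1 and 2 of the 5 groups and 54.9 to 85.3 CPM in replicates 3 and 4. EIF1, EIF1B and EIF1AX, of the start-codon scanning factors, ran from −0.45 to −0.04. EIF1AD, named for a domain like that of EIF1A, had −0.65 ± 0.24 (adjusted p = 0.204), without overlap. The 6 genes of EIF5, which triggers GTP hydrolysis, EIF5A, EIF5B, which joins the subunits, and EIF6, which keeps them apart, ran from −0.34 to 0.44. Among the 13 EIF3 genes other than EIF3C, the values at 50 °C ran from −0.28 to 0.29. At 46 °C over nanoparticles alone the members not called ran from −1.255 (EIF2AK3) to 0.589 (EIF2B3), both without overlap. EIF2AK3 averaged 4.74 CPM at 46 °C and 11.4 CPM with nanoparticles alone (SE 0.548, adjusted p = 0.348). For EIF2B3 the SE was 0.235 and the adjusted p 0.277.

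Members were measured more precisely than most genes, with a median SE of 0.152 at 50 °C over nanoparticles alone, against 0.332 for all tested genes. The shares of members and of all genes that were called or did not overlap are therefore not compared at equal precision. Among members, the precision behind the values that were not called was unequal. For 32 members with a mean of at least 100 CPM the 95% interval at 50 °C over nanoparticles alone reached a median of 0.27 to either side on the log2 scale, a 1.2-fold change. For 17 members at 20 to 100 CPM it reached 0.45, and for 5 under 20 CPM (EIF2AK3, EIF3J-DT, EIF4E3, EIF4EBP3 and EIF4ENIF1) 1.07. An interval that leaves out 0 was not enough for a call after adjustment over all genes, as EIF4G1 and EIF2S3 at 50 °C show.

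Partners and regulators of initiation outside the family were read from a list of 46 genes, 45 of them tested. At 46 °C over nanoparticles alone 1 was higher, where 0.617% of all genes were. This was PPP1R15A (GADD34), the phosphatase subunit that reverses phosphorylation of EIF2 alpha. It averaged 278 CPM at 46 °C and 131 CPM with nanoparticles alone, a log2 fold change of 1.08 ± 0.18 (adjusted p = 0.000116), and at 50 °C it was lower than at 46 °C (−0.74 ± 0.18, adjusted p = 0.0185), a call that held under 12 of 16 alternatives. At 50 °C over nanoparticles alone 1 was higher and 1 lower, where 0.527% and 0.691% of all genes were. PABPC1, the poly(A)-binding protein that contacts EIF4G1, averaged 2555 CPM at 50 °C and 1866 CPM with nanoparticles alone (0.45 ± 0.11, adjusted p = 0.0276), a call that held under 10 of 16 alternatives (adjusted p up to 0.169). DDX3X, a helicase that helps structured leaders, had a log2 fold change of −0.51 ± 0.13 (adjusted p = 0.0336) and held under 8 of 16 (adjusted p up to 0.217). For 50 °C over 46 °C, 0.584% of all genes were called higher and 0.609% lower. RACK1, a protein of the small subunit, was higher there (0.45 ± 0.10, adjusted p = 0.00571). With library totals as the scale its log2 fold change was 0.27 (adjusted p = 0.114, the highest of 16 alternatives, the lowest being 5.42e-05). The list's medians lay between −0.04 and 0.03 in the 6 comparisons, against −0.01 to 0.02 for all genes. At 54 °C over nanoparticles alone edgeR and DESeq2 called 0 of the list, with 2 at an unadjusted p under 0.05, where 5.75% of all genes were. At 54 °C over 50 °C DESeq2 called RACK1 and edgeR 0, although 7 had an unadjusted p under 0.05, where 6.02% of all genes had. For nanoparticles alone over untreated cells both called 0, with 0 at an unadjusted p under 0.05, where 3.94% of all genes were. Of 21 genes of elongation, termination and the hypusine modification of EIF5A, edgeR and DESeq2 called 0 in every comparison. At an unadjusted p under 0.05 there were 5 of the 21 at 50 °C over nanoparticles alone, where 11.4% of all genes were, and 5 at 54 °C over 50 °C, where 6.02% were. The median of this list was 0.22 for 50 °C over 46 °C, against −0.004 for all genes, and 0.11 for 50 °C over nanoparticles alone, against 0.02. In the other comparisons it lay between −0.05 and 0.07.

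Over the 5 group means, the genes whose pattern was most like that of EIF4A2 were PROSER2, ADIRF, SNHG15, SERPINB1 and LMF2, among 8180 genes with a mean of at least 10 CPM (Pearson r of 0.993 to 0.999 over 5 groups). Their log2 fold changes at 50 °C over nanoparticles alone were 0.39 to 0.72, and 0 of the 5 were called. The genes nearest to EIF4A1 were GPR108, GPI, TNIP1, STAT6 and HUWE1 (r of 0.992 to 0.996), of which HUWE1 was called at 50 °C (0.57, adjusted p = 0.0392).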

How the data were processed

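Messenger RNA of 20 MDA-MB-231 samples was read from its 3′ ends. The authors deposited estimated counts per gene, for which the submitters' processing notes name STAR, Salmon and GRCh38. The sources used here give no version, annotation or strand setting. Counts were rounded and tested with edgeR 4.0.16 in R 4.3.3 (TMM scaling, robust quasi-likelihood fit of 5 group means, counts of at least 10 in enough samples and 15 in total), with SE and 95% intervals from the fit. Since no label describes separate cultures, p-values cover only the spread between samples, possibly technical. CPM values are TMM-scaled. Positions and snoRNAs came from GENCODE v29, with all 55 members matched, and promoters from RefSeq. Alternatives were DESeq2 1.42.0, other scalings, no filter, replicate subsets and each sample left out. The fit was tested on simulated counts. Members and lists were chosen with earlier results of these data known. Genes given sample by sample were EIF4A1, EIF4A2, EIF3C, EIF3CL, all called members and, where none was called, the 2 with the smallest p.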

Additional observations from a re-analysis of the deposited data

Results flagged for a closer look

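Of 40 gene and group pairs checked, 4 held a sample far from the other 3 by Dixon's test, where chance gives about 1 in 20. EIF3H had 330 CPM in replicate 4 with nanoparticles alone, against 283 to 284 CPM in the others. EIF2S1 had 182 CPM in replicate 4 at 46 °C, against 148 to 151 CPM. It had 124 CPM in untreated replicate 2, against 163 to 167 CPM. EIF3C and EIF3CL together had 403 CPM in replicate 1 at 54 °C, against 312 to 315 CPM.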

How the results depend on the processing

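No called value took the opposite sign under any alternative run. EIF4A2 at 50 °C, against nanoparticles alone and 46 °C, and at 54 °C against 50 °C kept its call under all 16 alternatives of each comparison, and so did EIF3C at 46 and 50 °C except when summed with EIF3CL. Members called lower at 46 °C over nanoparticles alone, 0 in the report, were 2 with DESeq2 and 3 within replicates 1 and 2. Among all genes 76 and 114 were lower in these settings, against 42. Members higher at 50 °C were 5 with the 2 groups fitted alone, against 3 (EIF4G1 and EIF5A added). That fit called 104 genes higher in all, against 64. Members lower at 50 °C, 1 in the report, were 2 with library totals, without the filter and within replicates 1 and 2, and 0 within replicates 3 and 4. At 54 °C 1 member, EIF3C, was higher with DESeq2, without the filter and within replicates 3 and 4. These settings called 22, 26 and 16 genes higher in all, against 9. For 50 °C over 46 °C 1 was higher instead of 2 with library totals, within replicates 3 and 4 and with the 2 groups alone, EIF4A1 being lost. Genes higher in all were then 46, 40 and 71, against 71. For 54 °C over 50 °C 2 were lower within replicates 1 and 2, where 24 genes in all were lower, against 17. Across the 5 groups 8 members were called within replicates 1 and 2, against 4. All-gene counts of that test ran from 144 to 629 over the alternatives, against 292. The sum of EIF3C and EIF3CL at 50 °C over nanoparticles alone was called by DESeq2 (0.463), without the filter (0.456) and with the 2 groups alone (0.457).

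Leaving out 1 sample in turn gave 0 to 1 members lower at 46 °C, 2 to 3 higher and 0 to 1 lower at 50 °C over nanoparticles alone, 1 to 2 higher at 50 °C over 46 °C, and 2 to 5 across the 5 groups, with 2 without 50 °C replicate 3. Over the same fits all-gene counts were 26 to 51 lower at 46 °C, and 46 to 61 higher and 33 to 69 lower at 50 °C. They were 50 to 75 higher for 50 °C over 46 °C and 208 to 312 across the 5 groups. EIF4A1 at 50 °C over nanoparticles alone lost its call without 50 °C replicate 2, 3 or 4 and without nanoparticles-alone replicate 1, 2 or 3 (adjusted p up to 0.212). Over 46 °C it lost it without 46 °C replicate 1 or 2 and without 50 °C replicate 3 or 4 (adjusted p up to 0.191). DDX3X lost its call at 50 °C in 6 of 8 such fits, PABPC1 in 5 of 8, and PPP1R15A for 50 °C over 46 °C in 4 of 8. The causes were not tested.

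Single replicate numbers were not taken as pairs: deviations of same-numbered samples correlated at 0.0258 to 0.066, under the 0.1 required, and 0 to 3 of 4 numbers matched best with themselves. With the replicate block 2 members were lower at 46 °C (EIF3H and EIF4G2) and 2 at 50 °C over nanoparticles alone, genes called in all were 161 higher and 108 lower at 46 °C and 152 and 181 at 50 °C, against 75 and 42 and 64 and 84, and the sum of EIF3C and EIF3CL at 50 °C was called (0.456). All-gene counts over the alternatives ran from 45 to 161 higher and 19 to 114 lower at 46 °C, 40 to 152 and 21 to 227 at 50 °C, 4 to 27 and 3 to 19 at 54 °C, 40 to 174 and 35 to 374 for 50 °C over 46 °C, 2 to 32 and 15 to 36 for 54 °C over 50 °C, 0 to 4 and 0 to 1 for nanoparticles alone over untreated cells, and 144 to 629 across the 5 groups.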
